A study of Mus musculus with 3 samples.

Results

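The smooth muscle contractile genes *Acta2*, *Actg2*, *Myh11*, *Myl9*, *Tpm2*, *Tagln*, *Cnn1*, *Lmod1*, *Des*, and *Myocd* were followed across the cells of the P14 mouse lung. They were chosen by symbol, as 10 of the 28692 genes in the count tables, and all 10 were found. The libraries came from whole lungs of 3 WT C57BL/6 pups (mice 2, 3, and 4) kept in room air (RA) through day 14. The mice form 1 condition, so every comparison is between cell types of the same lungs, and the mouse is the replicate. No group carried a transgene, a deletion, or a treatment. A lung digest also holds whatever cells come through dissociation, so the number of cells of a type need not match its number in the tissue.

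Smooth muscle cells shorten by sliding actin filaments past myosin filaments. Calcium entry activates myosin light chain kinase, which phosphorylates the regulatory light chain and switches on the motor, while tropomyosin, calponin, and transgelin lie on the thin filament and desmin links the filaments to the rest of the cell. Myocardin, a coactivator of serum response factor, turns on many of these genes together through a DNA element called the CArG box. In the lung, smooth muscle surrounds airways and vessels, pericytes lie along capillaries, and myofibroblasts in the forming septa also carry contractile proteins while alveoli form.

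A cell was kept if it had 200 or more genes and no more than 20% of its UMIs from mitochondrial genes, which left 7642 of 9644. The 10 genes and 48 further contractile genes did not enter the clustering, and clusters were named from other marker genes, so the genes described here did not define the types directly. Other genes of the same cells did, and genes of a shared program move together, so the tests show how well differences repeat over the 3 mice once the types are given. Named from markers alone, the types are smooth muscle-like (167 cells), myofibroblast-like (770 cells), pericyte-like (90 cells), *Col13a1*-type fibroblast-like (165 cells), and *Col14a1*-type fibroblast-like (69 cells), and the ending is left out from here on. Smooth muscle rested on 8 detected markers with a mean log2 fold of 2.16 against all other cells, and pericytes on 13 markers with 4.08. None of the smooth muscle markers was among the 10 genes that led that cluster by fold, which began with *Pi15*, *Sfrp2*, and *Aoc3*. The kept cells had 20804836 to 23442355 UMIs per mouse, and 1043 AT2, 166 AT1, and 961 endothelial cells were among them, as the whole-lung label has it.

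A pair of stromal clusters stayed unnamed and were kept apart. Clusters outside the stromal cells stayed unnamed as well, the largest of them with 451 cells. The first, of 125 cells, is called the *Notch3* cluster after its leading gene. Its pericyte markers had a mean log2 fold of 1.97 against all other cells but of 0.66 against the other stromal cells, below the level of 1 that a smooth muscle or pericyte name also needed there, and its smooth muscle markers had 0.84 against all other cells. The fold against other stromal cells was asked of the smooth muscle and pericyte names only, where the named clusters had 1.51 and 3.00. The myofibroblast clusters of 318 and 253 cells had 0.45 and 0.08 there and were named from their fold against all other cells. The second, of 33 cells, is called the *Hhip*-*Tnnt2* cluster. It had 10 detected smooth muscle markers, with a mean log2 fold of 2.04 against all other cells and 1.19 against the other stromal cells. Its leading genes, however, held more myofibroblast markers (*Hhip* and *Enpp2*) than smooth muscle markers (*Synpo2*). Of these, *Hhip* is also an airway-type gene described below, so the name was withheld on few genes. This cluster had 17, 8, and 8 cells in mice 2, 3, and 4, so its values have no test. Another 45 pericyte-marker cells had a median of only 791 UMIs per cell, against 7943 in pericytes, and were left out of the type. Likewise, 56 cells with *Col13a1*-type markers and a median of 842.5 UMIs were left out of the *Col13a1* type.

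RNA of endothelial and B cells was low in smooth muscle, where the 6 endothelial markers summed to between 20.5 and 33.4 counts per 1000000 UMIs (CPM) in a mouse and the 4 B cell markers to between 4.46 and 9.23. The 5 AT2 markers were higher there, at 156 to 283 CPM, and the 5 cardiac muscle markers summed to 84.8 to 88.1 CPM. AT2 markers stood out in 2 sums: 8399 CPM in the pericytes of mouse 4, against 143 and 382 in the other mice, and 9043 CPM in the *Col13a1*-type fibroblasts of mouse 3, against 244 and 322. Endothelial markers summed to 334, 116, and 169 CPM in the pericytes of mice 2, 3, and 4, against 15.2 to 50.3 CPM in myofibroblasts. They reached 386 CPM in the *Col13a1*-type fibroblasts of mouse 3. B cell markers reached 157 CPM in the pericytes of mouse 3. A doublet score marked 16 of 165 *Col13a1*-type fibroblasts, 2 of 90 pericytes, and 1 of 167 smooth muscle cells. Their part in the values was not tested beyond leaving the marked cells out. Any pair of libraries shared 2 to 5 cell barcodes.

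The genes lie on 8 chromosomes (mm10, gene bounds from GENCODE M21). The actin genes are *Acta2* at chr19:34241090-34255590 and *Actg2* at chr6:83512905-83536265. The myosin genes are *Myh11* at chr16:14194535-14291372 and *Myl9* at chr2:156775420-156781658. Of the thin filament genes, *Tpm2* lies at chr4:43514711-43523765, *Lmod1* at chr1:135324807-135368065, and *Tagln* (chr9:45929619-45936058) and *Cnn1* (chr9:22099216-22109630) on the same chromosome. *Des* lies at chr1:75360329-75368579 and *Myocd* at chr11:65176561-65269989. *Tagln* overlaps *Pcsk7* and *Des* overlaps *Gm15179*, both on the opposite strand and both counted in the tables. The use of strand in counting is not given in the sources used here, and whether reads in these overlaps were told apart was not tested. None of the 50-base words in the last 500 bases of the transcripts of 9 of the genes was found in another gene's transcripts, and 1 of 1366 words was for *Myocd*, so the actin genes could be told apart by their 3′ ends.

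Promoter windows of RefSeq (GRCm38.p6, 250 bases before to 50 after the start) were present for 6 of the 10 genes. They were searched on both strands for the CArG box, since myocardin acts through it, in its consensus form or with 1 letter changed. *Acta2*, *Lmod1*, and *Myl9* had 2 boxes each, and no box was found in these windows of *Cnn1*, *Des*, and *Tpm2*. Of 32851 promoter windows of the same length, 1.63% held a consensus box, 21.1% held a box with at most 1 letter changed, and 3.7% held 2 or more such boxes. A match is only a match of letters. The 3 windows are shown because these are the members with boxes. The boxes are in capitals, both with 1 letter changed in *Acta2* (chr19:34255324-34255623, minus strand) and *Lmod1* (chr1:135324563-135324862, plus strand). In *Myl9* (chr2:156775214-156775513, plus strand), the first is the consensus and the second has 1 letter changed.
Acta2: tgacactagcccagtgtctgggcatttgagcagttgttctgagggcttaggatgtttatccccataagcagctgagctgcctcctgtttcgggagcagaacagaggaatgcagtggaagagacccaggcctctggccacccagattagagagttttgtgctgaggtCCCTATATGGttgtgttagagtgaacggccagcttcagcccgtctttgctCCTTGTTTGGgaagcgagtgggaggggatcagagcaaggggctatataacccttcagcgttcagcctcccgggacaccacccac
Lmod1: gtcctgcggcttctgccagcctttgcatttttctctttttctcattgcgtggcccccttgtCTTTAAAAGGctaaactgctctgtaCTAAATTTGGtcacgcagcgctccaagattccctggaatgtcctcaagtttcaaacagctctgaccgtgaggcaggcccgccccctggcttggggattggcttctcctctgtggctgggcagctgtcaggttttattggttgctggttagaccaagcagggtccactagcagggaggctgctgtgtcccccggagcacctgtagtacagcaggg
Myl9: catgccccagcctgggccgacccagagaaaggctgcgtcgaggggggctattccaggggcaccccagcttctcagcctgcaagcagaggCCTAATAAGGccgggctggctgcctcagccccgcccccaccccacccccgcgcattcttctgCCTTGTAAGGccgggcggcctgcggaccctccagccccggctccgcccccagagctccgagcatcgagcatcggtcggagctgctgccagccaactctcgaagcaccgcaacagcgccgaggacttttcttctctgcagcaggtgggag

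The UMIs of the 10 genes lay mostly in 3 small clusters. Smooth muscle, the *Hhip*-*Tnnt2* cluster, and the *Notch3* cluster held 4.28% of the cells and 6.90% of all UMIs (means of 3 mice). They held 96.9% ± 1.27 of the *Cnn1* UMIs (SD, n = 3), 86.1% ± 3.27 of the *Myh11* UMIs, and 83.7% ± 3.68 of the *Acta2* UMIs. The lowest shares were those of *Des* (51.8% ± 7.25) and *Tagln* (69.9% ± 4.73). In mouse 4, these clusters held 43.5% of the *Des* UMIs and myofibroblasts 48.1%. Smooth muscle alone held 68.6% ± 18.5 of the *Cnn1* UMIs, 52.1% ± 8.68 of the *Tagln* UMIs, and 30.5% ± 12.3 of the *Des* UMIs. Myofibroblasts, with 12.6% of all UMIs, held 39.2% ± 7.88 of the *Des* UMIs and 22.9% ± 5.99 of the *Tagln* UMIs, but only 1.39% ± 1.45 of the *Cnn1* UMIs. Shares follow the number of cells as well as the level per cell, and the levels are given next.

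**Figure D1:**
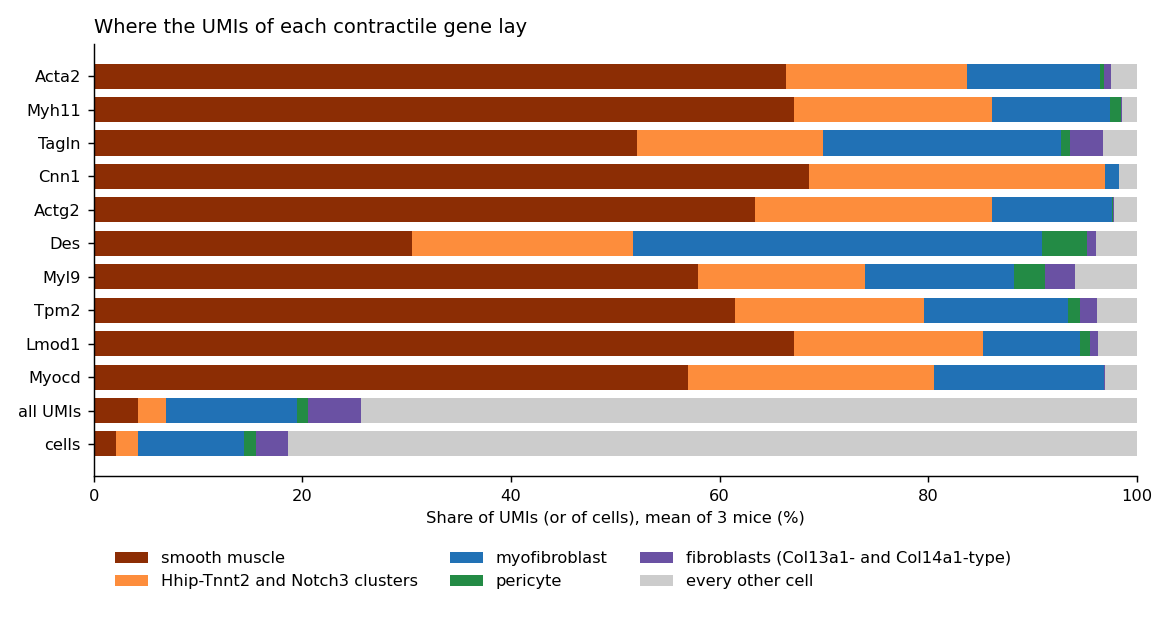
Stacked bars give the share of each gene's UMIs (mean of 3 mice, percent) that lay in smooth muscle, the *Hhip*-*Tnnt2* and *Notch3* clusters, myofibroblasts, pericytes, fibroblasts, and every other cell, with the shares of all UMIs and of cells below them. Smooth muscle and its 2 neighboring clusters held between 51.8% (*Des*) and 96.9% (*Cnn1*) of a gene's UMIs, and the blue myofibroblast part is widest for *Des*.

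Summed over the 10 genes, smooth muscle had 32460, 33106, and 33614 CPM in mice 2, 3, and 4, or 3.31% of its UMIs. The *Notch3* cluster had 10926, 15515, and 11893 CPM, all below smooth muscle. The *Hhip*-*Tnnt2* cluster, with 17, 8, and 8 cells, had 38673, 13012, and 31226 CPM, with mouse 2 above all 3 smooth muscle sums. Among the types compared, myofibroblasts (2607 to 3113 CPM) and pericytes (2223 to 2456 CPM) came next after smooth muscle and did not overlap. *Col13a1*-type fibroblasts had 693 to 846 CPM and *Col14a1*-type fibroblasts 222 to 493 CPM. Endothelial cells (55.1 to 90.9 CPM), AT2 cells (19.9 to 34.0 CPM), and B cells (20.3 to 28.8 CPM), which should lack most of these genes, lay far below. Neutrophils, which should lack them as well, had 105, 210.5, and 352 CPM and overlapped *Col14a1*-type fibroblasts. Their *Acta2* level (56.5 to 152 CPM) also overlapped *Col13a1*-type fibroblasts, so low levels in fibroblasts were not above every background type.

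**Figure D2:**
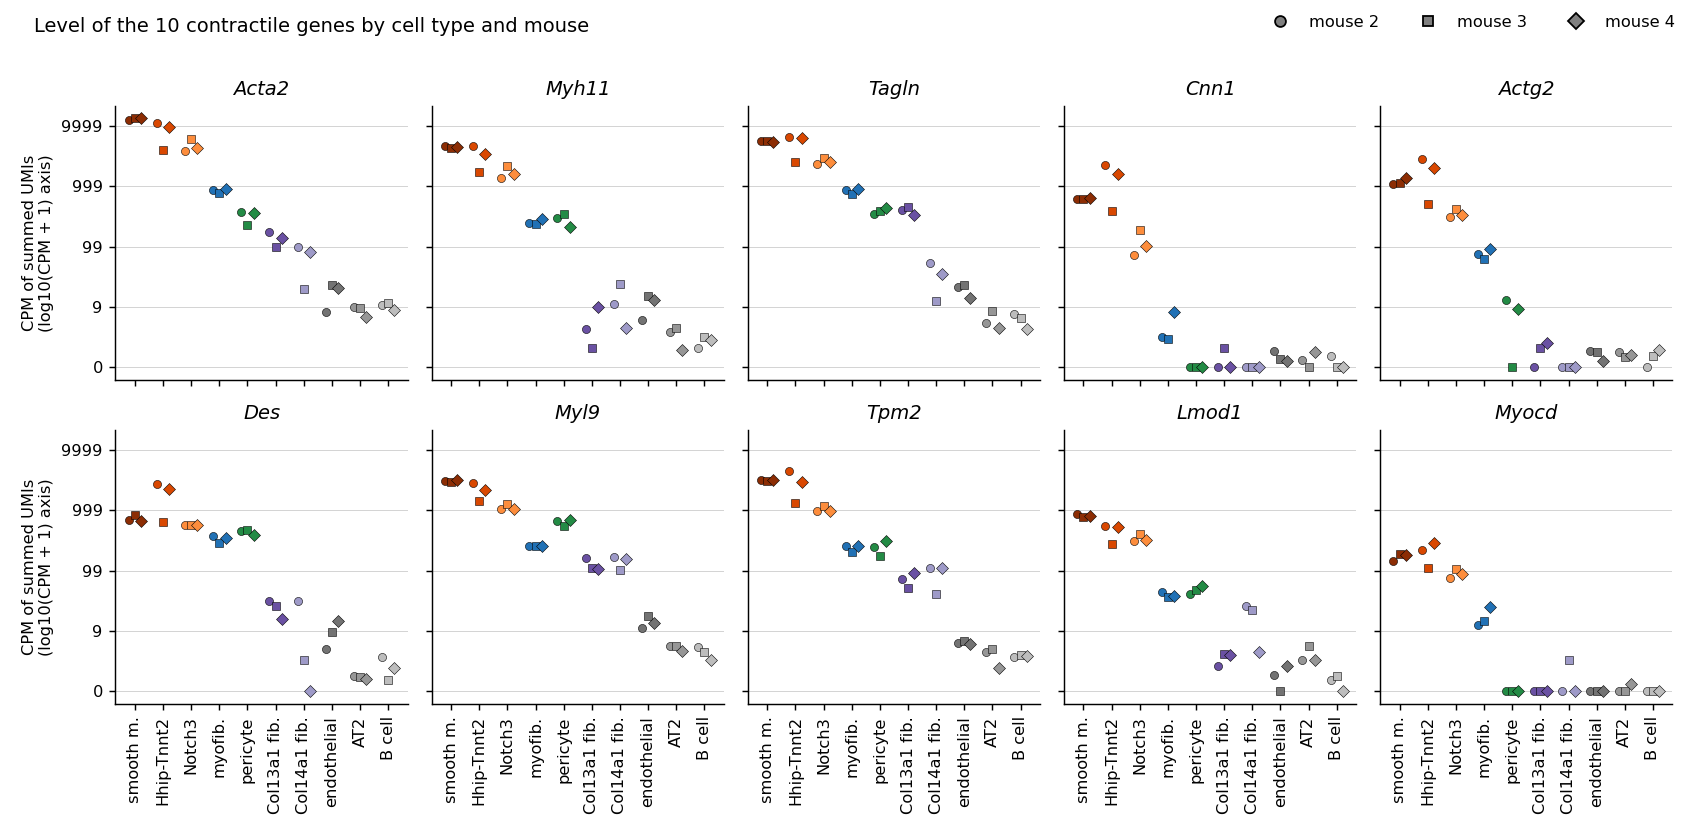
Each panel gives 1 gene, and each point the level in 1 mouse (CPM of UMIs summed over the cells of a type, on a log10(CPM + 1) axis), for 8 named types and 2 unnamed clusters. Smooth muscle or the *Hhip*-*Tnnt2* cluster is at the top for every gene, *Cnn1* and *Myocd* are at 0 in all 3 pericyte sums, and *Tagln* is at a like level in pericytes and *Col13a1*-type fibroblasts.

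The actins differed most clearly in the cells outside smooth muscle. *Acta2*, the smooth muscle α-actin, was at 12451, 13402, and 13435 CPM in the smooth muscle of mice 2, 3, and 4. It was at 857, 772, and 901 CPM in myofibroblasts, 382, 232, and 355 CPM in pericytes, and 174, 98.0, and 139.6 CPM in *Col13a1*-type fibroblasts. The 4 types did not overlap, in that order. *Acta2* was 4.13 ± 0.24 log2 units (SE) higher in smooth muscle than in myofibroblasts (adjusted p = 2.8e-13, edgeR's quasi-likelihood test, Benjamini-Hochberg adjusted across all genes, as for every adjusted p given here), and 1.34 ± 0.24 higher in myofibroblasts than in pericytes (adjusted p = 7.6e-05). Every smooth muscle cell had an *Acta2* UMI, and 87.3% ± 0.92 of myofibroblasts did (SD, n = 3). In B cells, which should lack the gene, 3.59% ± 0.19 had a UMI, at a median of 3960 UMIs per cell against 12066 in smooth muscle and 10661.5 in myofibroblasts. With cells thinned to 2000 UMIs, the shares were 57.2% in myofibroblasts, 34.5% in pericytes, and 1.78% in B cells.

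*Actg2*, the γ-actin best known from gut and other visceral muscle, was at 1114, 1148, and 1369.8 CPM in smooth muscle. Myofibroblasts had 73.7, 61.2, and 89.6 CPM. Pericytes had 6 UMIs in all (12.1, 0, and 8.26 CPM), and *Col13a1*-type fibroblasts had 2. The gene was 4.18 ± 0.15 log2 units higher in smooth muscle than in myofibroblasts (adjusted p = 5.9e-16) and 3.15 ± 0.41 higher in myofibroblasts than in pericytes (adjusted p = 1.5e-06). In myofibroblasts, 34.6% ± 1.97 of cells had an *Actg2* UMI, against 0.21% ± 0.20 of B cells. T cells, at 2.31 to 19.3 CPM, overlapped pericytes.

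The myosins separated pericytes from fibroblasts in both cases. *Myh11*, the smooth muscle myosin heavy chain, was at 4638, 4319, and 4563 CPM in smooth muscle. It was at 300.2, 348, and 215 CPM in pericytes and 243, 237, and 282 CPM in myofibroblasts, and these types overlapped (log2 difference of myofibroblasts minus pericytes −0.17 ± 0.19, adjusted p = 0.56). *Col13a1*-type fibroblasts had only 9 UMIs, at 3.32, 1.07, and 8.91 CPM. *Myh11* was 5.96 ± 0.33 log2 units higher in pericytes (adjusted p = 2.5e-13) and 5.79 ± 0.31 higher in myofibroblasts (adjusted p = 8.5e-14) than in these fibroblasts. Of the pericytes, 81.9% ± 7.88 had a *Myh11* UMI, against 3.85% ± 2.03 of *Col13a1*-type fibroblasts, which had the deeper cells (median 13684 UMIs).

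*Myl9*, a regulatory light chain of myosin, was at 3019, 2979, and 3167 CPM in smooth muscle. It was the only one of the 10 genes called lower in myofibroblasts than in pericytes. Pericytes had 676, 545, and 682 CPM and myofibroblasts 253, 252, and 257 CPM, without overlap (−1.34 ± 0.15 log2, adjusted p = 8.9e-08). Fibroblasts carried the gene as well, at 104 to 159 CPM in the *Col13a1* type and 103 to 166 CPM in the *Col14a1* type, which overlapped. AT2 cells (3.58 to 4.69 CPM) and B cells (2.31 to 4.42 CPM) lay far below.

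The thin filament genes ranged from broad to narrow. *Tpm2*, a tropomyosin that lies along the actin filament, was at 3171, 3078, and 3225 CPM in smooth muscle. Pericytes (249, 177, and 306 CPM) and myofibroblasts (256, 201, and 261 CPM) overlapped, and their log2 difference was −0.07 ± 0.22 (adjusted p = 0.86). Fibroblasts of both types had 39.8 to 112 CPM. AT1 cells reached 36.5 CPM of *Tpm2* and B cells 2.93 CPM.

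*Tagln*, the actin-binding protein transgelin (SM22α), was at 5737, 5769, and 5538 CPM in smooth muscle and 878, 750, and 902 CPM in myofibroblasts. A *Tagln* UMI was found in 79.4% ± 6.04 of *Col13a1*-type fibroblasts, a larger share than for any other of the 10 genes in these cells. Pericytes had 346, 395, and 434 CPM and *Col13a1*-type fibroblasts 406, 463, and 331 CPM. These overlapped, with a log2 difference of −0.16 ± 0.18 (adjusted p = 0.55). The *Col14a1* type, at 52.8, 11.7, and 34.9 CPM, lay below both. *Tagln* was 2.93 ± 0.17 log2 units higher in smooth muscle than in myofibroblasts (adjusted p = 3.1e-13).

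*Cnn1*, calponin, which binds actin and slows the myosin motor, was the narrowest. Smooth muscle had 609.7, 615, and 643 CPM, with a UMI in 97.2% ± 2.69 of cells. Myofibroblasts had 36 UMIs in 18 of 770 cells (2.13, 1.90, and 7.39 CPM), and neutrophils, with 2 UMIs (0 to 4.04 CPM), overlapped them. None of 90 pericytes had one, which allows a share of cells with a UMI of up to 3.33%, and none of 69 *Col14a1*-type fibroblasts did, which allows up to 4.35% (3 cells of the total). These limits are for cells with a UMI, not for cells that express the gene. *Cnn1* was 7.34 ± 0.21 log2 units higher in smooth muscle than in myofibroblasts (adjusted p = 9.4e-17) and at least 149-fold higher than in pericytes (against a floor of 3 UMIs over the type). When cells were clustered after log-normalization, myofibroblasts had a mean of 79.5 CPM of *Cnn1*. Levels come from raw UMIs, so the cells counted as myofibroblasts differed there. Whether they included cells of the *Hhip*-*Tnnt2* cluster, with 1646 CPM of *Cnn1* pooled over mice, was not tested.

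*Lmod1*, leiomodin, which starts new actin filaments, was at 885, 781, and 814 CPM in smooth muscle. Pericytes (39.4, 47.7, and 53.7 CPM) and myofibroblasts (43.3, 35.1, and 37.5 CPM) overlapped (log2 difference −0.26 ± 0.27, adjusted p = 0.52). *Col13a1*-type fibroblasts had 6 UMIs, at 1.66 to 3.20 CPM, which overlapped AT2 cells (2.33 to 4.69 CPM). *Lmod1* was 4.58 ± 0.14 log2 units higher in smooth muscle than in myofibroblasts (adjusted p = 2.6e-18).

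*Des*, desmin, the intermediate filament protein of muscle, was the least confined to smooth muscle. It was at 693, 824, and 679 CPM in smooth muscle, 452, 477, and 397 CPM in pericytes, and 369, 283, and 351 CPM in myofibroblasts. These 3 ranges did not overlap, but the steps were small. Smooth muscle was 0.90 ± 0.21 log2 units above pericytes (adjusted p = 0.0010) and 1.30 ± 0.18 above myofibroblasts (adjusted p = 2.1e-06), and the difference of myofibroblasts and pericytes did not pass the test (−0.40 ± 0.21, adjusted p = 0.16), although it did with DESeq2 (−0.43, adjusted p = 0.041), with only the 2 types in the fit (−0.41, adjusted p = 0.012), and with the stricter cell filter (−0.50, adjusted p = 0.023). A *Des* UMI was found in 95.9% ± 5.22 of pericytes, 94.9% ± 2.93 of smooth muscle cells, and 81.8% ± 3.19 of myofibroblasts, but in 0.69% ± 0.52 of B cells. Between myofibroblasts and *Col13a1*-type fibroblasts (29.9, 24.5, and 14.8 CPM) the step was 3.73 ± 0.27 log2 units (adjusted p = 2.6e-11).

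*Myocd*, the coactivator, split the cells by type. Smooth muscle had 143, 191, and 181 CPM, the *Notch3* cluster 74.6, 104, and 87.9 CPM, and myofibroblasts 11.7, 13.8, and 24.2 CPM, with no overlap. No UMI was found in 90 pericytes or 165 *Col13a1*-type fibroblasts, which allows shares of cells with a UMI of up to 3.33% and 1.82%. None of 961 endothelial cells (up to 0.312%) or 1783 B cells (up to 0.168%) had one either. These shares do not limit the cells that express *Myocd*, since even in smooth muscle a UMI was found in 82.6% ± 6.71 of cells, and in 28.4% ± 2.76 with cells thinned to 2000 UMIs. In myofibroblasts, 13.1% ± 2.50 of cells had a *Myocd* UMI. Other types were not all at 0. AT1 cells had 7 *Myocd* UMIs in 6 of 166 cells (2.00 to 3.03 CPM), and 466 neutrophils had 3 (1.97 to 4.04 CPM). Both types lay below myofibroblasts. *Myocd* was 3.49 ± 0.19 log2 units higher in smooth muscle than in myofibroblasts (adjusted p = 3.8e-12), at least 41.2-fold higher in smooth muscle than in pericytes, at least 4.17-fold higher in myofibroblasts than in pericytes, and at least 12.9-fold higher in myofibroblasts than in *Col13a1*-type fibroblasts. Limits and floors from counts of 0 cover counting error only.

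**Figure D3:**
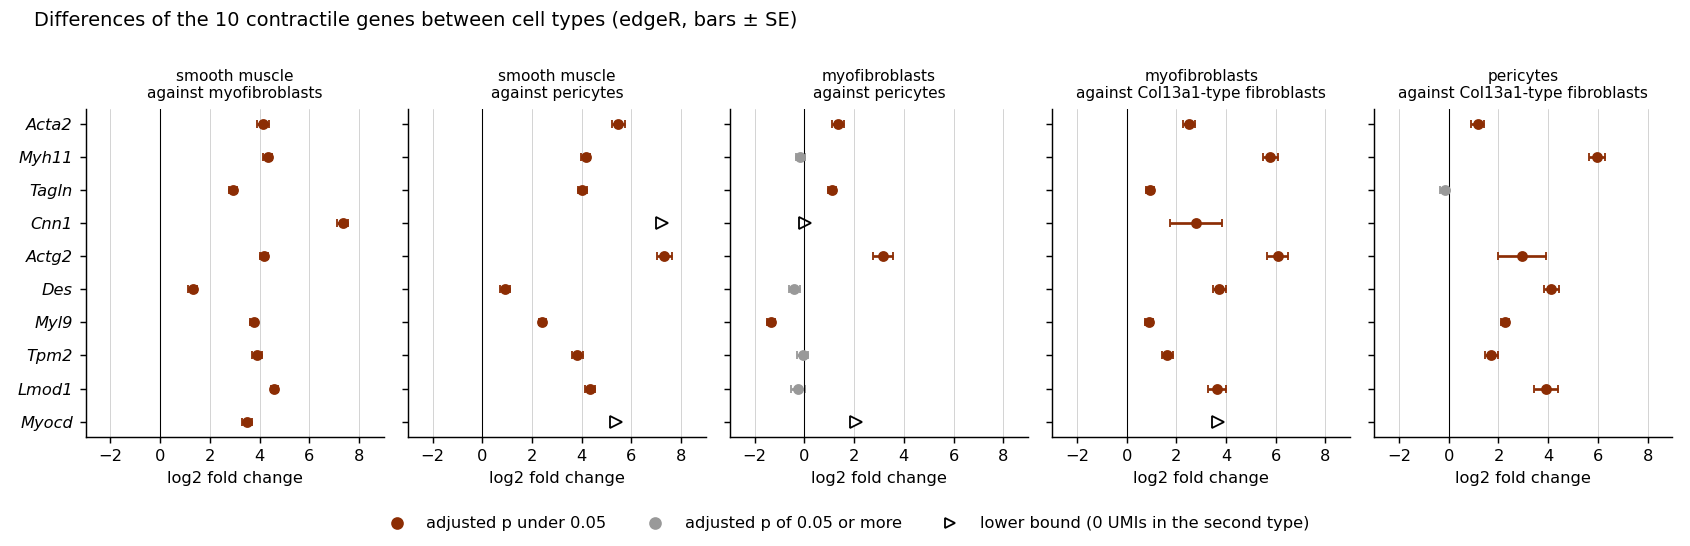
Points give the log2 fold change of each gene (edgeR on UMIs summed per mouse and type, bars ± SE, n = 3 mice) in 5 comparisons, dark where the adjusted p is under 0.05, and open triangles give lower bounds where the second type had 0 UMIs. All points lie to the right of 0 for smooth muscle against myofibroblasts or pericytes, from 0.90 (*Des* against pericytes) upward, and *Cnn1* and *Myocd* are left out of the last panel.

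Counted over the comparisons, smooth muscle was set apart from both neighbors by all 10 genes. Against myofibroblasts, 10 of 10 were called higher, where 21.5% of the 9569 genes tested were called higher and 18.8% lower. The median log2 difference of the 10 was 4.01, beside −0.02 over all genes. Against pericytes, 10 of 10 were called higher (19.5% of all genes were, and 16.9% were called lower), with a median of 4.24 beside 0.06. With library-size scaling in place of TMM, the median over all genes moved to −0.19 in the first comparison, and 37.3% of its calls were higher in place of 53.4%, with all 10 genes still called higher.

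Myofibroblasts and pericytes were not ordered by the genes as a group. *Acta2*, *Tagln*, *Actg2*, and *Myocd* were called higher in myofibroblasts (15.0% of all genes were), and *Myl9* was called lower (14.6% of all genes were). *Myh11*, *Tpm2*, *Lmod1*, *Des*, and *Cnn1* did not pass the test, which does not show that they were equal. With log-normalization, where the cells counted as myofibroblasts differed, *Cnn1* was called higher in myofibroblasts. The median of the 10 log2 differences was 0.52 as fitted and −0.02 with *Cnn1* and *Myocd* at their bounds, so its sign rests on genes at 0 in pericytes. The result also rests on which cells are called pericytes. With the *Notch3* cluster counted among them, 10 of 10 genes were called lower in myofibroblasts and 0 higher. Over all genes, the number called in that fit, in both directions together, stayed within 1.5 times the 2831 of the main fit. Its split by direction is not given here.

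Against *Col13a1*-type fibroblasts, 10 of 10 genes were called higher in myofibroblasts (17.6% of all genes were called higher and 20.4% lower), with a median of 3.23 beside 0.02. This count includes *Cnn1*, which passed the low-count filter only through smooth muscle (609.7 to 643 CPM), a type outside this comparison. Its call is therefore not evidence for the comparison. With library-size scaling, 59.0% of all calls there were higher in place of 46.3%. *Cnn1* was the weakest of these calls (2.80 ± 1.04 log2, adjusted p = 0.040), with 36 UMIs against 1 and a ratio of 9.44 (exact 95% counting interval 1.59 to 383). Its log2 difference was 2.74 (adjusted p = 0.078) without mouse 2 and 1.35 (adjusted p = 0.43) without mouse 4. The call was also lost with the contractile genes kept for clustering (2.01, adjusted p = 0.11), without marked doublets (2.61, adjusted p = 0.065), and with the *Notch3* cluster counted as smooth muscle (2.82, adjusted p = 0.069) or as pericytes (2.82, adjusted p = 0.10). *Actg2* had 652 UMIs against 2, a ratio of 85.5 (23.6 to 708).

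Pericytes had 7 of the 8 genes with a fold called higher than in *Col13a1*-type fibroblasts (15.0% of all genes were called higher and 18.1% lower), and *Tagln* was the eighth. The median of the 8 genes was 2.59 beside −0.04 over all genes. *Actg2* is among the 7, but it passed the low-count filter only through smooth muscle and myofibroblasts, which are outside this comparison. Its call is therefore not evidence here. *Actg2*, with 6 UMIs against 2 (ratio 9.25, exact 95% counting interval 1.65 to 93.7), was called (adjusted p = 0.021), but not without mouse 2 (log2 difference 1.82, adjusted p = 0.42) or without mouse 4 (3.32, adjusted p = 0.063), with log-normalization (2.94, adjusted p = 0.21), or with the stricter cell filter (2.51, adjusted p = 0.13). *Cnn1* and *Myocd* had at most 1 UMI in either type and have no fold. The comparisons share the sums of the same types, so they are not independent of each other.

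The unnamed clusters carried the genes in different proportions. In the *Hhip*-*Tnnt2* cluster, mice 2 and 4 lay above all 3 smooth muscle sums, and mouse 3 below them, for 5 genes. *Cnn1* was at 2272, 385, and 1633 CPM in mice 2, 3, and 4, *Actg2* at 2867, 513, and 2003 CPM, and *Des* at 2700.2, 650.1, and 2243 CPM. *Tagln* was at 6541, 2555, and 6249.6 CPM and *Myocd* at 221, 109.9, and 283 CPM. For *Acta2* (11337, 3992, and 9668 CPM), *Myl9* (2899, 1447, and 2178 CPM), and *Lmod1* (559, 275, and 534 CPM), all 3 mice lay below all 3 smooth muscle sums. Mouse 3 was the lowest of the 3 for each of the 10 genes, and its 8 cells also had 494 CPM of the B cell markers, against 54.1 and 0 in mice 2 and 4. The part of that RNA in its levels was not tested. The cardiac muscle list summed to 992, 137, and 784 CPM in this cluster, with *Myh6* and *Myl7* at 0.

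In the *Notch3* cluster, every gene was below smooth muscle in every mouse, but by different steps. *Acta2* was at 3859, 6229.7, and 4339 CPM and *Cnn1* at 71.3, 189, and 103 CPM. *Des* (566, 567, and 571 CPM) was nearest to smooth muscle. Against pericytes, all 10 genes were higher in this cluster, and the ranges did not overlap. This difference was not tested. A *Cnn1* UMI was found in 37.1% ± 14.2 of its cells and a *Myocd* UMI in 53.8% ± 9.17, at a median of 9790 UMIs per cell.

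Of 3 airway-type and 5 vessel-type genes, some separated these clusters and others did not. *Hhip*, an inhibitor of hedgehog ligands, was at 1844, 3150, and 1459 CPM in the *Hhip*-*Tnnt2* cluster, at most 44.1 CPM in smooth muscle, and at most 2.20 CPM in the *Notch3* cluster. *Nog*, a BMP antagonist, was highest there (72.1, 54.9, and 43.6 CPM) and was at 0 in all 3 smooth muscle sums. *Notch3*, a receptor of vascular mural cells, was at 1098, 948, and 1209 CPM in the *Notch3* cluster and 319, 412, and 354 CPM in smooth muscle, but had 1 mouse above 0 (9.16 CPM) in the *Hhip*-*Tnnt2* cluster. Pericytes had a like level of *Notch3* (1089, 1193, and 1037 CPM) and of *Rgs5* (307 to 664 CPM), but no UMI of *Map3k7cl* or *Ntf3*. *Map3k7cl* was at 162 to 218 CPM in smooth muscle, 77.8 to 189 CPM in the *Notch3* cluster, and at most 27.0 CPM in the *Hhip*-*Tnnt2* cluster. *Ntf3*, of the vessel list, overlapped between smooth muscle and the *Hhip*-*Tnnt2* cluster, at 120.4 to 134 CPM in smooth muscle, 38.9 to 70.4 CPM in the *Notch3* cluster, and 9.16 to 152 CPM in the *Hhip*-*Tnnt2* cluster. *Pln*, an inhibitor of the calcium pump of the sarcoplasmic reticulum and also of the vessel list, was highest in the *Hhip*-*Tnnt2* cluster, at 45.8 to 152 CPM, against at most 4.19 CPM in the others. *Rgs5*, of the vessel list too, was higher in the *Hhip*-*Tnnt2* cluster than in smooth muscle, with 51.3 to 176 CPM in smooth muscle, 311 to 684 CPM in the *Notch3* cluster, and 284 to 357 CPM in the *Hhip*-*Tnnt2* cluster. *Lgr6*, of the airway list, was high in smooth muscle as well, with 227 to 231 CPM in smooth muscle, 410 to 522 CPM in the *Hhip*-*Tnnt2* cluster, and 11.1 to 38.9 CPM in the *Notch3* cluster. *Hhip*, *Lgr6*, *Nog*, *Notch3*, *Pln*, and *Map3k7cl* were also among the markers used for naming, and all of these genes were open to the clustering, so the values are a description.

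**Figure D4:**
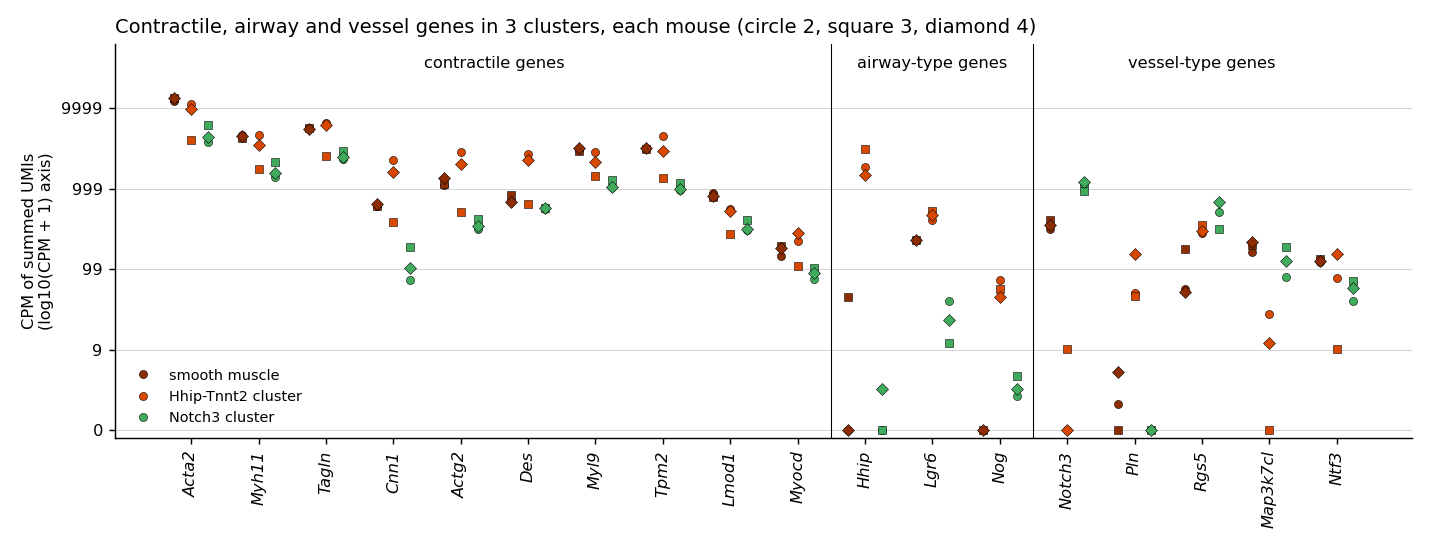
Points give the level in each mouse (CPM, log10(CPM + 1) axis) of the 10 contractile genes, 3 airway-type genes, and 5 vessel-type genes in smooth muscle (dark), the *Hhip*-*Tnnt2* cluster (orange), and the *Notch3* cluster (green). *Hhip* and *Nog* are highest in the *Hhip*-*Tnnt2* cluster and *Notch3* in the *Notch3* cluster, and mouse 3 (squares) is the lowest orange point for each contractile gene.

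Myofibroblasts fell into 3 clusters of 318, 253, and 199 cells that differed in these genes. The smallest, whose *Hhip* level was 1173 CPM against 117 and 75.6 CPM in the others, had the most *Myocd* (44.7 CPM, against 13.5 and 4.23 CPM pooled over mice) and *Lmod1* (73.1 CPM, against 38.2 and 17.6 CPM). Pooled over mice, it had the least *Acta2* (631 CPM, against 883 and 966 CPM) and *Tagln* (677 CPM, against 1001 and 810.2 CPM). This did not hold in mouse 4, where its *Acta2* (813 CPM) was above that of the cluster of 318 cells (802 CPM) and its *Tagln* (857 CPM) above that of the cluster of 253 cells (847 CPM). These differences were not tested.

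Single cells showed how many of the genes came together. All 167 smooth muscle cells had UMIs of at least 8 of the 10 genes (median 10), as did all 33 cells of the *Hhip*-*Tnnt2* cluster and 80.8% of the *Notch3* cluster (median 9). The median was 6 genes in myofibroblasts and 5 in pericytes, with 8 or more in 13.6% and 3.33% of cells. *Col13a1*-type fibroblasts had a median of 3 and *Col14a1*-type fibroblasts 2, while 91.5% of B cells had none. Thinned to 2000 UMIs per cell, the medians were 8 in smooth muscle, 9 in the *Hhip*-*Tnnt2* cluster, 6 in the *Notch3* cluster, 3 in myofibroblasts, 2.5 in pericytes, 1 in *Col13a1*-type fibroblasts, and 0 in *Col14a1*-type fibroblasts and B cells. Thinned myofibroblasts ranged from 0 to 9 genes and thinned smooth muscle cells from 6 to 10. Thinning left out 1 myofibroblast, 2 pericytes, 9 *Col13a1*-type fibroblasts, and 76 B cells as too shallow, and no smooth muscle cell.

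**Figure D5:**
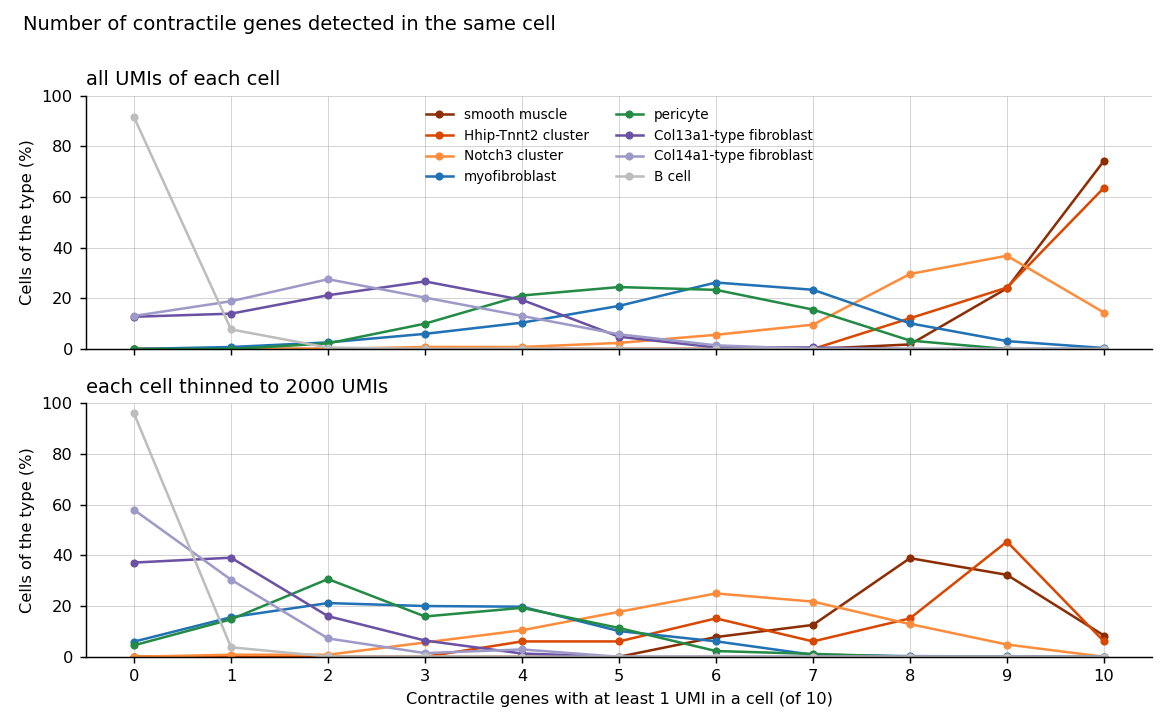
Lines give the share of cells of a type (percent) by the number of the 10 contractile genes with at least 1 UMI in a cell, with all UMIs (top) and with each cell thinned to 2000 UMIs (bottom). Smooth muscle and the *Hhip*-*Tnnt2* cluster lie at the right, B cells at 0 genes, and the *Notch3* cluster lies between smooth muscle and myofibroblasts, which spread over 0 to 9 genes when thinned.

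The wider set of 48 genes of contraction and its cytoskeleton, of which 47 were tested, was mostly called higher in smooth muscle, and was called in both directions elsewhere. Against myofibroblasts, 39 were called higher and 3 lower in smooth muscle, where 21.5% of all genes tested were called higher and 18.8% lower, with a median log2 difference of 1.68 beside −0.02 over all genes. Against pericytes, 35 were higher and 4 lower (19.5% and 16.9% of all genes), with a median of 2.19 beside 0.06. Myofibroblasts had 16 higher and 16 lower than pericytes (15.0% and 14.6% of all genes), with a median of 0.04 beside 0.06. They had 17 higher and 18 lower than *Col13a1*-type fibroblasts (17.6% and 20.4% of all genes), with a median of 0.04 beside 0.02. Pericytes had 17 higher and 15 lower than these fibroblasts (15.0% and 18.1% of all genes), with a median of 0.22 beside −0.04.

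The members of this set with the largest differences were mostly low outside smooth muscle. *Ldb3*, a Z-disc protein, was at 203 ± 14.5 CPM in smooth muscle (SD, n = 3) and 2.68 ± 1.19 CPM in myofibroblasts (6.45 ± 0.20 log2, adjusted p = 6.6e-15), and at least 48.5-fold above pericytes, which had no UMI. *Pgm5*, found at muscle adhesions, was at 67.9 ± 13.2 CPM in smooth muscle and 0.68 ± 0.19 CPM in myofibroblasts (6.51 ± 0.31 log2, adjusted p = 5.0e-14), and at least 16.2-fold above pericytes. It was also at 143 ± 26.8 CPM in *Col13a1*-type fibroblasts, with −7.54 ± 0.27 log2 for myofibroblasts (adjusted p = 5.3e-16). The calcium release channel *Ryr2* had 206 UMIs in smooth muscle (73.0 ± 10.0 CPM), 3 in myofibroblasts, and 11 in pericytes (14.6 ± 9.23 CPM). *Actc1*, the cardiac α-actin, was at 1762 ± 214 CPM in smooth muscle and at least 423-fold above pericytes, which had no UMI. In myofibroblasts, *Actc1* varied between mice (37.9 ± 42.2 CPM).

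A few genes of the set were called lower in smooth muscle. *Myh9*, a non-muscle myosin heavy chain, was at 184 ± 13.7 CPM in smooth muscle, 392 ± 7.13 CPM in myofibroblasts, and 1205 ± 148 CPM in pericytes, and was called lower in smooth muscle than in either (−0.91 ± 0.13 and −2.53 ± 0.13 log2, adjusted p = 1.5e-06 and 8.3e-14). *Tpm4*, a cytoskeletal tropomyosin, was at 252 ± 59.0, 391 ± 11.8, and 774 ± 11.7 CPM in the same types (−0.45 ± 0.13 and −1.45 ± 0.14 log2, adjusted p = 0.0078 and 7.9e-09). *Cnn2*, a calponin of non-muscle cells, was at 455 ± 14.8 CPM in smooth muscle and 784 ± 131 CPM in pericytes (−0.60 ± 0.15 log2, adjusted p = 0.0027), but at 161 ± 3.24 CPM in myofibroblasts, below smooth muscle (1.67 ± 0.15 log2, adjusted p = 7.6e-10). The actin crosslinker *Actn4* was at 319.6 ± 84.5 CPM in pericytes, against 46.8 ± 3.16 CPM in myofibroblasts and 42.6 ± 16.7 CPM in *Col13a1*-type fibroblasts, and was 2.96 ± 0.15 log2 units higher in smooth muscle than in myofibroblasts (adjusted p = 1.7e-14). The cytoskeletal actins *Actb* (1.02 ± 0.08 log2, adjusted p = 5.1e-11) and *Actg1* (0.61 ± 0.11 log2, adjusted p = 4.0e-05) were also called higher in smooth muscle than in myofibroblasts, and the non-muscle myosin gene *Myh10* was higher in smooth muscle than in pericytes (2.54 ± 0.16 log2, adjusted p = 1.7e-12). These 3 were chosen after their values were seen.

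*Pdlim3*, a muscle LIM protein, was the set's clearest gene of myofibroblasts. It was at 293 ± 11.4 CPM there, 136 ± 7.42 CPM in smooth muscle (−0.93 ± 0.12 log2 for smooth muscle, adjusted p = 3.9e-07), and 1.84 ± 2.33 CPM in *Col13a1*-type fibroblasts (7.12 ± 0.27 log2 for myofibroblasts, adjusted p = 1.7e-16). Pericytes had 1 UMI of it. The intermediate filament gene *Synm* and the small heat shock gene *Hspb1* were higher in *Col13a1*-type fibroblasts than in myofibroblasts, at 138 ± 9.07 against 12.2 ± 0.76 CPM (−3.60 ± 0.20 log2 for myofibroblasts, adjusted p = 2.6e-13) and 259.7 ± 48.0 against 25.1 ± 2.55 CPM (−3.47 ± 0.15 log2, adjusted p = 2.0e-15).

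Over 74 sums of a mouse and a cell type or cluster, the genes whose levels ran most like a member's were often the same. The measure was Pearson's r of log2(CPM + 10) over the sums, among 13543 genes. It is a description, since sums of a mouse share a library and most types have these genes only at low levels. *Hspb7* was among the 3 most like genes for *Cnn1* (r = 0.98), *Actg2* (0.92), *Lmod1* (0.91), and *Myocd* (0.91). *Actc1* was among them for *Actg2* (0.95), *Myocd* (0.91), and *Acta2* (0.84). The broad members had other neighbors. *Myl9* was nearest to *Mylk*, the light chain kinase (0.86), to *Gucy1a3* (0.86), and to *Cald1*, caldesmon (0.86), *Des* to *Rrad* (0.92), *Lmcd1* (0.91), and *Mir143hg* (0.91), and *Tagln* to *Hspb2* (0.91), *Ppp1r14a* (0.90), and *Ndrg2* (0.90). Among each other, the members' r ran from 0.62 (*Myl9* and *Myocd*) to 0.94 (*Myl9* and *Tpm2*). Of the other 9 members, 8 were among the 20 genes most like *Acta2* and *Myh11*, but only 3 for *Tagln* and *Cnn1*.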

How the data were processed

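Single-cell RNA-Seq (10x Genomics v3 3′ chemistry) of whole lungs from 3 mice was analyzed. Per the labels, each library was processed with Cell Ranger 3.0.2 on mm10, and the deposited values are counts of UMIs, which the authors did not normalize. The deposited tables list 9644 cells. GEO's design text names 5677 cells, and the filter behind that number is not given in the sources used here.

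Cells with 200 or more genes and no more than 20% of UMIs from mitochondrial genes were clustered in R 4.3.3 (Seurat 5.3.0) after SCTransform (sctransform 0.4.2) on 30 principal components at resolution 0.8, and stromal clusters again on 20. The 10 genes and the 48 genes of the wider set were left out of the variable genes. Clusters were named from lists of marker genes (11 for smooth muscle). A name needed a mean log2 fold of at least 1 with 20 CPM added and at least 3 markers in at least 10% of cells. Leading genes could not favor another type. A cluster with a median UMI count under 1/3 of the sample's also needed an own marker among its leading genes. Stromal clusters under that limit were kept apart as low-UMI clusters. Smooth muscle and pericyte names also needed a mean log2 fold of at least 1 against the other stromal cells, which was not asked of the other types. These limits were set after the clusters were seen. The genes, lists, and comparisons were chosen with earlier results of these data known. Doublets were scored per library (scanpy 1.11.5). The automatic threshold marked under 0.5% of cells, so the highest scores were marked instead, at 0.8% per 1000 cells, which gave 74, 79, and 97 cells. They were kept in the main analysis.

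UMIs were summed per mouse and type with at least 10 cells. Levels are CPM of these sums (mean ± SD over mice). Levels by mouse in the *Hhip*-*Tnnt2* cluster are also given where it had only 8 cells (mice 3 and 4). Differences were tested with edgeR 4.0.16 (quasi-likelihood, TMM scaling, filterByExpr, no block) over the sums of 5 mesenchymal types, with Benjamini-Hochberg adjustment over 9569 genes at 0.05. The filter on low counts took the 5 types together, so a gene could be tested in a comparison through a type outside it. Sums of a type from different mice are the replicates. The SE of a log2 difference was derived as its size divided by the square root of the test's F statistic. All types come from the same 3 mice, so mouse is a pairing by design. Over 30 pairs of sums of the same mouse, deviations from the type means correlated with r of −0.08 to 0.14 (median 0.04). Tested on simulated data for smooth muscle against myofibroblasts (10169 genes, 200 changed by 2 log2 units), the fit called 97% of the changed genes and 0.11% of the others. The simulated sums were independent, and only these 2 types were in that fit. The main fit held 5 types from the same mice and called 3857 of 9569 genes in this comparison, so its rates may differ. Genes named from the wider set were those called with the 3 largest differences in each direction of a comparison. Genes like a member were the 3 with the highest r among genes at 20 CPM or more in a type. For comparisons of detection, cells were thinned to 2000 UMIs. Floors took 3 UMIs where a type had 0, and counting intervals are exact at 95%.

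Alternatives were DESeq2 1.42.0, library-size scaling, no filter on low counts, mouse as a block, only the 2 types compared, leaving out each mouse, and clustering with the contractile genes kept, at resolutions 0.4 and 1.2, with log-normalization, with a filter of 500 genes and 10% mitochondrial UMIs, and without marked doublets. After the data were seen, the *Notch3* cluster was counted as smooth muscle or as pericytes and the low-UMI pericyte cluster as pericytes. Protein sequences were not used here. A gene of the airway list is not reported here.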

Additional observations from a re-analysis of the deposited data

Results flagged for a closer look

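Outside the cells used in the comparisons, UMIs of the 10 genes also appeared in data left aside. The cells removed by the cell filter held 814 of them in all. Of those removed UMIs, 209 were from *Acta2*, at 42.9 CPM of the removed cells against 844 CPM in the kept cells.

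In an unnamed cluster of 161 cells (757 UMIs in the median cell) led by the neuronal genes *Uchl1*, *Pcsk1n*, and *Sncg*, *Acta2* was at 2122 CPM, *Tagln* at 1337 CPM, and *Cnn1* at 77.9 CPM, pooled over mice. The mice differed widely, with 622 to 7143 CPM for *Acta2*, 364 to 3927 CPM for *Tagln*, and 23.1 to 302 CPM for *Cnn1*. A further unnamed cluster, with 46 of its 48 cells in mouse 4 and a median of 549.5 UMIs, had *Acta2* at 874 CPM. In an unnamed cluster of 31 cells led by the platelet genes *Pf4* and *Clec1b*, *Myl9* was at 2595 CPM and *Tpm2* at 316 CPM, while *Tagln*, *Myh11*, *Des*, and *Cnn1* had no UMI. No control sample exists, and each value lies above what a count of 0 allows. The sources of these UMIs were not tested.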

How the results depend on the processing

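Under the alternatives listed with the methods other than those added after the data were seen, the number of the 10 genes called stayed within 1.5 times the value given in all 5 comparisons (70 of 70 counts), as did the counts for the wider set and over all genes, and mouse as a replicate block changed no call of the 10 genes (10 genes called for smooth muscle against myofibroblasts, as without the block). Of the 669 values of single-gene log2 differences under these alternatives, 651 kept direction and side of the threshold. With 2 mice, the numbers of the 10 genes called were 10 for smooth muscle against either type, 5 for myofibroblasts against pericytes, 9 to 10 for myofibroblasts and 6 to 7 for pericytes against *Col13a1*-type fibroblasts. Of single genes in the comparison of myofibroblasts and pericytes, *Tpm2* turned to 0.022 with no filter on low counts and ranged from −0.11 to 0.058 with 2 mice (positive without mouse 4), and was 0.59 with log-normalization and 0.0042 with the stricter cell filter, and *Myh11* to 0.53 and *Lmod1* to 0.38 with log-normalization. None of these 6 passed the test. With the *Notch3* cluster counted as pericytes (chosen after the data were seen), 10 genes were called, all lower, in myofibroblasts against pericytes. Over all genes, the number called there stayed within 1.5 times the value given. The log2 differences were −1.99 for *Acta2*, −1.16 for *Tagln*, −4.09 for *Cnn1*, −1.66 for *Actg2*, and −1.74 for *Myocd*, and *Tagln* in pericytes against *Col13a1*-type fibroblasts turned to 2.10. The summed level of the 10 genes moved to 34643 CPM in smooth muscle with the stricter cell filter. In myofibroblasts it moved to 4206 CPM with log-normalization. No other summed level moved by more than the spread between mice. Of the levels of single genes, 19 moved and 421 did not. All 10 genes moved in myofibroblasts with log-normalization, where *Cnn1* was at 79.5 CPM against 3.81 CPM in the main analysis. *Cnn1* was then called higher in myofibroblasts than in pericytes. Levels come from raw UMIs, so the cells counted as myofibroblasts differed there. The part of cells from the *Hhip*-*Tnnt2* cluster in these values was not tested. Thinning moved the median number of genes per cell to 8.0 in smooth muscle, 3.0 in myofibroblasts, 2.5 in pericytes, 1.0 in *Col13a1*-type fibroblasts, and 0.0 in *Col14a1*-type fibroblasts, since fewer UMIs were read. The cause of the other changes was not tested. Genes at 0 UMIs in the 90 pericytes were not detected at this depth, which does not show that they were absent.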
